A study of Mus musculus with 36 samples.

Results

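The double-strand break repair genes are 40 genes whose products sense, trim, and rejoin broken DNA, and they were followed in mouse blood 7 days after irradiation. They were taken by gene symbol, as every probe of the array that carries one of the 40 names and is not a control probe. Of the 40 genes, 39 had a probe, out of 31093 gene names on the array. *Rad51c* had no probe under that name. The 39 genes were covered by 52 probes, and the brightest probe above background stood for each gene.

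RNA was taken from the whole blood of 36 male C57BL/6J mice, hybridised to 1 Agilent single-colour array per mouse after depletion of globin RNA, with 6 mice in each of 6 groups. The control mice were sham-irradiated. The other groups received 3 Gy x-rays, a mixed field of neutrons and x-rays of 3 Gy in total with 5, 15, or 25% neutrons (0.15, 0.45, and 0.75 Gy of neutrons in the methods), or 0.75 Gy neutron without x-rays. The titles call the last group 100% neutron, whereas the methods give 83% because the source also emits photons. The mice were 8 to 10 weeks old when irradiated, and every group, the controls included, was killed at day 7. The comparisons ask which genes respond to each field at a fixed time, and whether the neutron share changes the response. No later or earlier time was analysed here.

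A double-strand break is first marked by the ATM and ATR kinases and by a scaffold of MDC1, ubiquitin ligases, and 53BP1 built on phosphorylated histone H2AX. The break is then closed by end joining, which ligates the ends after the Ku dimer and DNA-PKcs have bound them, or by homologous recombination, which copies the sister chromatid and so works mainly in cells that have replicated their DNA. The Fanconi proteins handle crosslinked DNA and stalled forks together with the recombination proteins, and alternative end joining serves as a backup route. Lymphocytes depend on end joining to assemble their antigen receptor genes, while most circulating blood cells do not divide.

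Values are log2 intensities relative to the median probe of the same array, so that 1 unit is a doubling and 0 is the median probe. A gene was taken as changed when the limma test over the 12 arrays of a comparison gave p below 0.001 and an adjusted p (Benjamini-Hochberg, over all 15085 genes tested) below 0.05. Of the 39 genes, 37 lay above background and 33 also varied enough between arrays to be tested. *Rnf8*, *Mus81*, *Nhej1*, and *Rbbp8* were above background but differed too little between arrays to be kept. *Brca1* was significantly above background on 0 arrays and *Chek1* on 23 of the 36 arrays, with no array well above it, and neither was tested.

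Arrays fell into 4 scan sessions on 10 slides. Controls and x-rays shared the first (5 arrays of each), and the 5 and 15% mixed fields shared the second (5 arrays of each). All 12 arrays of the 25% mixed field and 0.75 Gy neutron were in the third, and a single slide with 1 array each of controls, x-rays, 5%, and 15% mixed field made up the fourth. Scan session and exposure therefore cannot be told apart for the 25% mixed field and 0.75 Gy neutron. For the 5 and 15% mixed fields only the arrays of that single slide, 1 of each group, shared a session with controls or x-rays. Probes well above background numbered 19492 to 20724 on control arrays and 15569 to 21294 on arrays of exposed mice, and were fewer after x-rays and 0.75 Gy neutron (both p = 0.0022, exact two-sided permutation test, the smallest p that 6 against 6 arrays allow, adjusted p = 0.0054). Their part in the results below was not tested.

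More members were lower than higher after every exposure. After 3 Gy x-rays 12 members were lower and 2 higher, after the 5% mixed field 7 and 2, after the 15% mixed field 8 and 2, after the 25% mixed field 6 and 2, and after 0.75 Gy neutron 5 and 1. These were 42.4, 27.3, 30.3, 24.2, and 18.2% of the 33 members, against a background of 29.8, 23.1, 29.1, 24.8, and 36.6% of all genes tested. Of all genes tested, 16.9, 14.0, 16.5, 13.9, and 20.5% were lower and 12.9, 9.04, 12.6, 10.9, and 16.1% higher. With the main settings, the share of members exceeded the background after x-rays and was below it after 0.75 Gy neutron. For the 3 mixed fields it was near the background. The median member differed from the controls by -0.99, -0.37, -0.59, -0.37, and -0.63 in that order, and the median of all genes tested by -0.11, -0.08, -0.02, -0.12, and -0.12. Scaling each array to its 75th percentile in place of its median moved the median of all genes after x-rays to 0.44. It gave 8 lower and 4 higher members out of 28, where 31.2% of all genes were called. The share after x-rays fell below the background only with the slide as a block (1 of 33 members, 8.41% of all genes). Without the fourth session it was near the background (8 of 33 members, 21.2% of all genes). The share after 0.75 Gy neutron exceeded the background only with arrays centred on spike-in probes (33 of 37 members, 80.2% of all genes). Shares with single arrays left out were not compared with the background.

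Of the 33 members, 18 changed after at least 1 exposure, 3 after all 5, and 15 after none (54.5, 9.09, and 45.5%), near the 55.3, 10.8, and 44.7% of all genes tested. Of the 18 members, 15 were lower and 3 higher, and 0 were higher after one exposure and lower after another. *Fancd2* was higher, and *Fanca* and *Mdc1* lower, after all 5 exposures. The 5 exposures share their 6 control arrays, so their agreement in direction does not come from independent measurements.

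**Figure D1:**
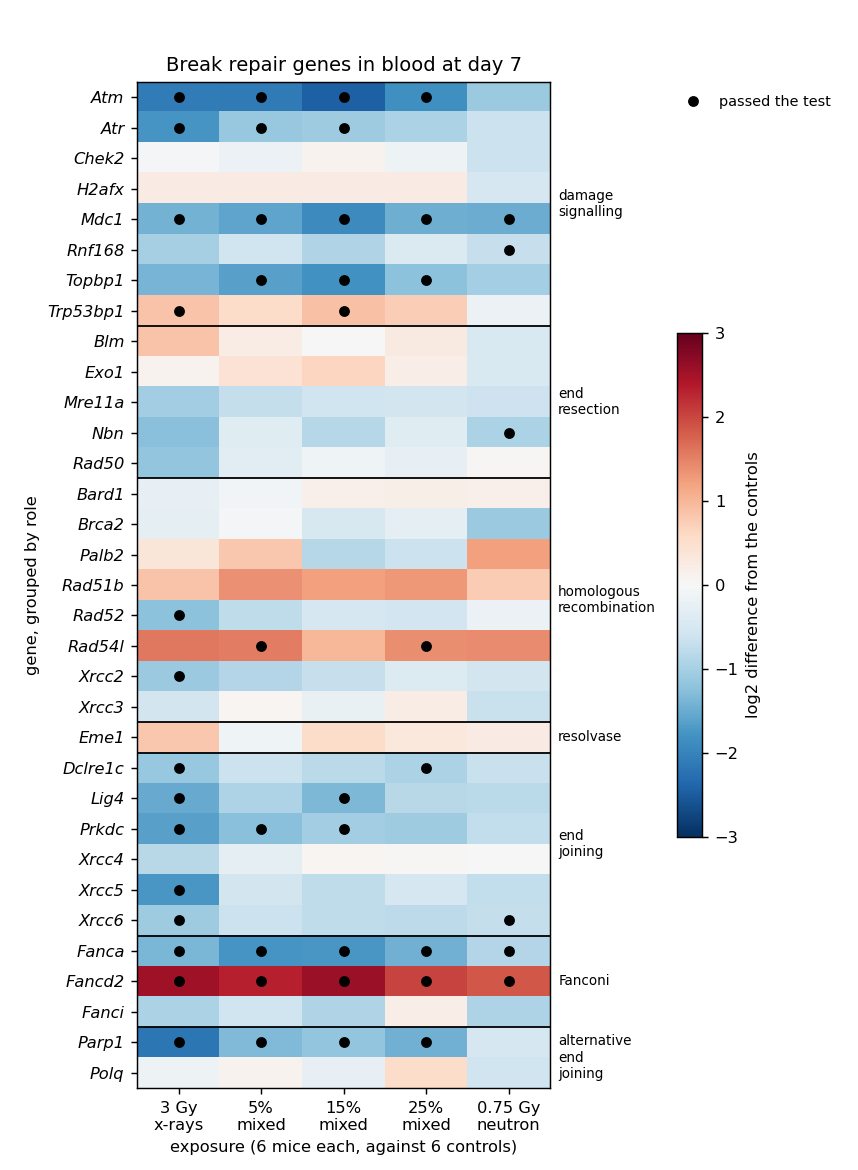
The heat map plots the log2 difference from the controls for the 33 members tested (rows, by role) after each of the 5 exposures (columns, 6 mice each), with a dot where the limma test was passed. Blue (lower) cells prevail in damage signalling and end joining, while *Fancd2* is red (higher) in all 5 columns, although with spike-in centring its value after 0.75 Gy neutron turned to -0.05 and those of *Trp53bp1* after x-rays and the 15% mixed field to -0.13 and -0.41.

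The promoters of *Fanca*, *Mdc1*, and *Atm* are shown because these genes fell after at least 4 of the 5 exposures and hold a CCAAT box. *Parp1*, which fell after 4, holds none in its window. RefSeq promoter windows of 300 bases (250 before and 50 after the start, GRCm38.p6, first listed start) were found for 32 of the 40 members. The 250 bases before the start are given 5′ to 3′ on the strand of the gene, with CCAAT, the box bound by NF-Y, in capitals on either strand (ATTGG on the reverse). They lie at chr8:123318577-123318826 (minus strand), chr17:35841248-35841497 (plus strand), and chr9:53536672-53536921 (minus strand).
Fanca: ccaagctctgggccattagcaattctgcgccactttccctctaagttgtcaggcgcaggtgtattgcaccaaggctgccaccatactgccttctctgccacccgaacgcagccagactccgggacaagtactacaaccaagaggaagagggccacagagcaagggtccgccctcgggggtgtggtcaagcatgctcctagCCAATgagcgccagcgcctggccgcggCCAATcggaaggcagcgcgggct
Mdc1: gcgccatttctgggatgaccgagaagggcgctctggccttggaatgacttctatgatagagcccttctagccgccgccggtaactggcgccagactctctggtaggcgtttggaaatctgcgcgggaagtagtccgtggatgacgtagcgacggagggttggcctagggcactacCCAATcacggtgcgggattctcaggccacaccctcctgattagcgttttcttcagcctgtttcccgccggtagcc
Atm: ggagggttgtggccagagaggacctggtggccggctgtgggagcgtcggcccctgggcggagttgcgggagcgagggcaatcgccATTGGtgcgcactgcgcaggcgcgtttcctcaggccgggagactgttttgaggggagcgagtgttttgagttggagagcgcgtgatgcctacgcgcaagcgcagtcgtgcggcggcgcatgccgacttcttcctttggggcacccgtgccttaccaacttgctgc

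CCAAT stood in 46.9% of the 32 member windows and in 37.9% of the windows of 27025 genes. The letters TTTGAA and TTCGAA, the cell cycle homology region, stood in 12.5 and 3.12% of member windows against 18.1 and 1.57% of all windows. The letters TTTCGCGC and TTTGGCGC, forms of the E2F site, stood in 6.25 and 0% against 0.318 and 0.537%, with *Topbp1* and *Rad51c* as the 2 members. Both strands were searched, and no motif contains another. The median share of G and C was 59.2% in member windows and 52.7% in all windows.

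The largest fall of all members was in damage signalling. *Atm*, the kinase that starts the response to a break, lay between 1.91 and 2.82 on control arrays (median 2.38). After x-rays it lay between -0.47 and 1.43 (median 0.05), after the 5% mixed field between -0.08 and 0.69 (median 0.07), after the 15% mixed field between -0.49 and 0.42 (median -0.20), and after the 25% mixed field between -0.38 and 1.03 (median 0.55). All arrays of these groups lay below all control arrays, although the probe was well above background on only 1, 2, 1, and 5 of their 6 arrays. The differences were -2.10 ± 0.31 (SE), -2.11 ± 0.24, -2.45 ± 0.24, and -1.83 ± 0.26, that is, 4.29-, 4.32-, 5.45-, and 3.55-fold lower (limma adjusted p = 0.000123, 2.35e-05, 3.94e-06, and 0.000104). After 0.75 Gy neutron *Atm* lay between -0.14 and 3.55 (median 0.98), and its difference of -1.12 ± 0.47 did not pass the test (limma adjusted p = 0.0545). In that group 5 arrays lay at or below 1.13 and the third mouse at 3.55, above every control.

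*Mdc1*, the scaffold that binds phosphorylated H2AX, lay between 4.19 and 4.91 on control arrays (median 4.48). Its values were 2.64 to 3.78 after x-rays (median 2.96), 2.42 to 3.31 after the 5% mixed field (median 2.93), 2.11 to 3.19 after the 15% mixed field (median 2.59), 2.62 to 3.44 after the 25% mixed field (median 3.04), and 2.61 to 3.40 after 0.75 Gy neutron (median 3.02). No array of an exposed mouse reached the lowest control. The differences were -1.41 ± 0.23, -1.58 ± 0.23, -1.92 ± 0.24, -1.47 ± 0.21, and -1.48 ± 0.19, a fall of 2.67- to 3.79-fold (limma adjusted p between 2.15e-05 and 0.000312), and each was still called with any 1 of its 12 arrays left out.

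*Topbp1*, whose product activates ATR, lay between 3.03 and 3.76 on control arrays (median 3.28), 0.95 and 2.37 after the 5% mixed field (median 1.75), 0.94 and 2.38 after the 15% mixed field (median 1.34), and 1.37 and 2.64 after the 25% mixed field (median 2.22), without overlap. It fell by 1.62 ± 0.26, 1.82 ± 0.29, and 1.23 ± 0.24 on the log2 scale after these. Its differences after x-rays (-1.40 ± 0.36) and 0.75 Gy neutron (-1.03 ± 0.30) missed the threshold with limma adjusted p of 0.00518 and 0.00972. *Atr*, the kinase of single-stranded DNA at stalled forks, fell by 1.76 ± 0.28 after x-rays, by 1.13 ± 0.26 after the 5% mixed field, and by 1.07 ± 0.22 after the 15% mixed field. It lay between 3.77 and 4.58 on control arrays (median 4.07) and between 1.31 and 3.05 (median 2.45), 2.54 and 3.75 (median 2.80), and 2.69 and 3.43 (median 3.06) in those groups, without overlap. The call after the 5% mixed field was lost without any 1 of 8 arrays (5% replicates 2, 4, 5, and 6, and control replicates 2, 3, 5, and 6), with differences of -1.29 to -1.04 when 1 array was left out. *Rnf168*, a ubiquitin ligase that marks chromatin around the break, fell by 0.70 ± 0.16 after 0.75 Gy neutron (limma adjusted p = 0.00244), a call lost without any 1 of 9 arrays (all neutron replicates but the second, and control replicates 1, 2, 5, and 6), with differences of -0.78 to -0.63.

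*Trp53bp1*, which encodes 53BP1 and steers breaks toward end joining, was the 1 damage signalling gene that rose. It lay between 2.36 and 2.89 on control arrays (median 2.62), 3.02 and 3.8 after x-rays (median 3.53), and 3.26 and 3.75 after the 15% mixed field (median 3.42), without overlap. The rises of 0.85 ± 0.19 and 0.87 ± 0.19 (limma adjusted p = 0.00215 and 0.00177) turned to -0.13 and -0.41 when arrays were centred on the spike-in probes in place of the median probe. Leaving out 1 array kept the rises between 0.79 and 0.94, but the x-ray call was lost without x-ray replicate 2, 3, 4, or 6 and the 15% call without 15% replicate 1 or 5, and either without control replicate 1, 4, 5, or 6. Its values after 0.75 Gy neutron, 2.16 to 2.81 (median 2.40), overlapped the controls, with a difference of -0.17 ± 0.15. *Chek2*, a checkpoint kinase, and *H2afx*, which encodes H2AX, passed the test after no exposure, with differences between -0.65 and 0.12 and between -0.51 and 0.25.

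**Figure D2:**
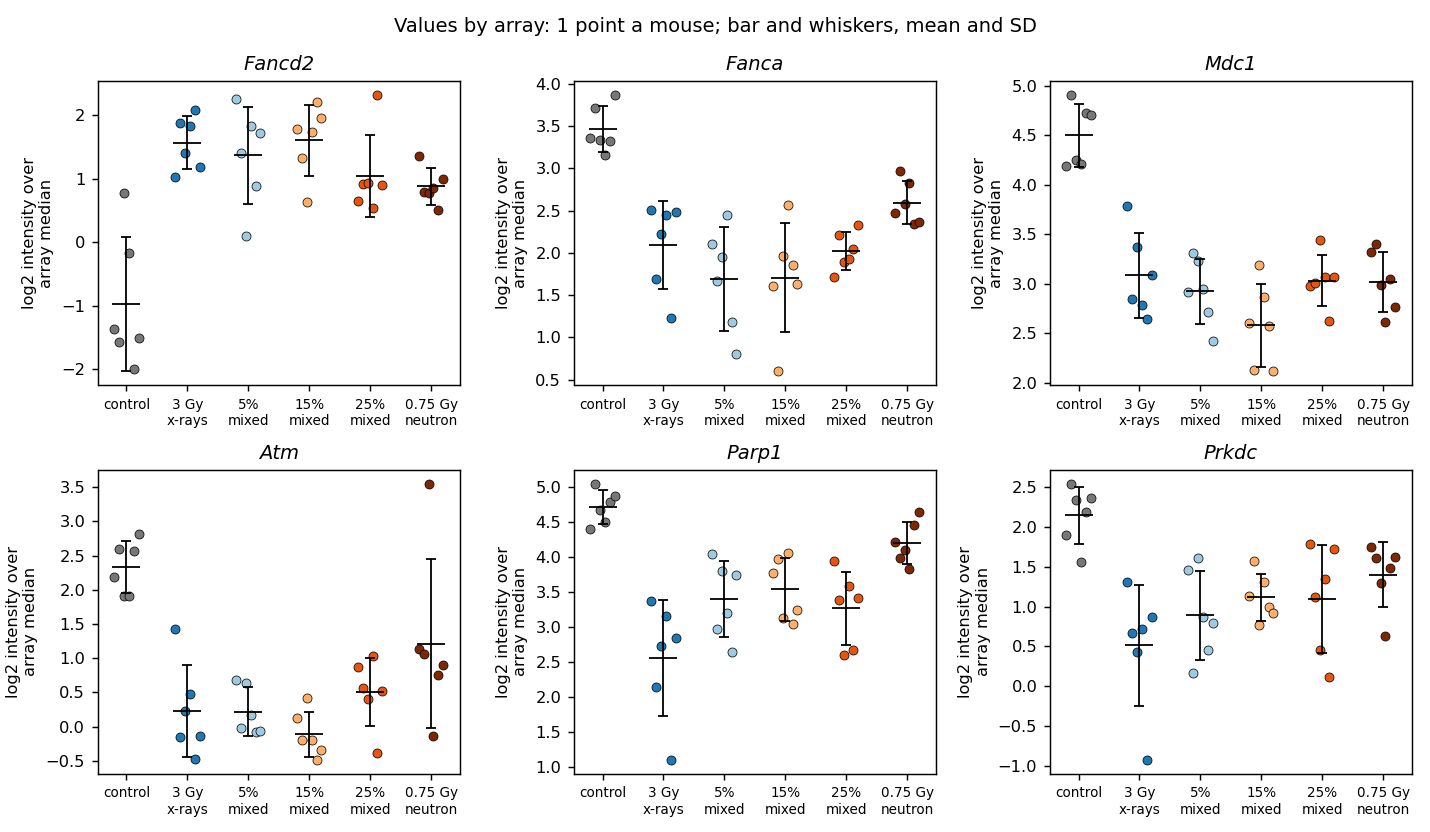
The 6 panels plot the log2 intensity over the array median of *Fancd2*, *Fanca*, *Mdc1*, *Atm*, *Parp1*, and *Prkdc* in the 6 groups, with 1 point per mouse and the mean and SD as bar and whiskers. The control points of *Fanca* and *Mdc1* lie above all points of exposed mice, the third mouse of 0.75 Gy neutron stands apart for *Atm* at 3.55, and the control points of *Fancd2* spread from -2.0 to 0.78 below most exposed points, a direction that spike-in centring turned after 0.75 Gy neutron (-0.05).

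*Fancd2* and *Fanca*, both of the Fanconi pathway, moved in opposite directions. *Fancd2* encodes the protein whose ubiquitination is the central step of the Fanconi pathway. It lay between -2.0 and 0.78 on control arrays (median -1.44). Its values were 1.03 to 2.08 after x-rays (median 1.62), 0.10 to 2.25 after the 5% mixed field (median 1.56), 0.63 to 2.20 after the 15% mixed field (median 1.76), 0.54 to 2.32 after the 25% mixed field (median 0.91), and 0.50 to 1.36 after 0.75 Gy neutron (median 0.82). The x-ray arrays lay above all controls, and the highest control reached into the other 4 groups. The rises were 2.54 ± 0.42, 2.34 ± 0.48, 2.58 ± 0.44, 2.02 ± 0.45, and 1.85 ± 0.40, or 5.83-, 5.08-, 5.98-, 4.05-, and 3.62-fold (limma adjusted p = 0.000325, 0.00148, 0.000349, 0.00254, and 0.00146).

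The *Fancd2* probe was well above background on 1 of 6 control arrays and on 6, 5, 6, 5, and 1 arrays of the exposed groups. The high control was the third mouse, whose array lay on the slide of the fourth session. On that slide the x-ray, 5%, and 15% arrays of *Fancd2* differed from it by 0.41, 0.11, and -0.15, whereas 5 x-ray and 5 control arrays of the first session differed by 2.97. Without the fourth session the rises were 2.97, 2.79, 3.13, 2.37, and 2.21. With spike-in centring they were 1.56, 0.97, 1.30, 1.15, and -0.05, and none passed. The call after the 25% mixed field was lost without any 1 of 8 of the 12 arrays (25% replicates 2, 3, 5, and 6, and control replicates 1, 2, 5, and 6), and that after 0.75 Gy neutron without any 1 of 9 (all neutron replicates but the fifth, and the same controls). These rises then lay between 1.76 and 2.37 and between 1.65 and 2.21.

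*Fanca*, a subunit of the Fanconi core complex that ubiquitinates FANCD2, lay between 3.16 and 3.87 on control arrays (median 3.35). It lay between 1.23 and 2.51 after x-rays (median 2.33), 0.80 and 2.45 after the 5% mixed field (median 1.81), 0.60 and 2.57 after the 15% mixed field (median 1.75), 1.72 and 2.33 after the 25% mixed field (median 1.99), and 2.35 and 2.97 after 0.75 Gy neutron (median 2.53). All 30 arrays of exposed mice lay below all controls. The falls were 1.37 ± 0.25, 1.77 ± 0.28, 1.76 ± 0.29, 1.44 ± 0.19, and 0.87 ± 0.17 on the log2 scale, 1.83-fold after 0.75 Gy neutron and 2.58- to 3.41-fold after the others, and leaving out any 1 array kept all 5 calls. The call after 0.75 Gy neutron was lost with 75th percentile scaling (-0.60, limma adjusted p = 0.00435), with quantile normalization, and in a single model over all 36 arrays. *Fanci*, the partner of FANCD2, passed after no exposure, with differences between -0.96 and 0.21.

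Every end joining gene that changed was lower. Of 6 end joining members tested, 5 fell after x-rays, 1 after the 5% mixed field, 2 after the 15% mixed field, and 1 each after the 25% mixed field and 0.75 Gy neutron. These are 83.3, 16.7, 33.3, 16.7, and 16.7% of 6 genes, beside 16.9, 14.0, 16.5, 13.9, and 20.5% of all genes lower, so that a single call lay near the background. *Prkdc*, the catalytic subunit of DNA-PK, lay between 1.56 and 2.55 on control arrays (median 2.26), -0.93 and 1.31 after x-rays (median 0.70), 0.16 and 1.61 after the 5% mixed field (median 0.83), and 0.76 and 1.58 after the 15% mixed field (median 1.06). The x-ray arrays lay below all controls and 5 of 6 arrays did in each of the mixed fields. The falls were 1.64 ± 0.33, 1.26 ± 0.28, and 1.03 ± 0.23 (limma adjusted p = 0.00115, 0.00277, and 0.00184). The calls after the 5 and 15% mixed fields were lost without control replicate 2, 3, 5, or 6, the former also without 5% replicate 2, 4, 5, or 6 and the latter without 15% replicate 1, 5, or 6, with differences of -1.40 to -1.11 and -1.15 to -0.95. Its differences after the 25% mixed field (-1.06 ± 0.30) and 0.75 Gy neutron (-0.75 ± 0.22) did not pass.

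*Xrcc5* and *Xrcc6* encode the Ku80 and Ku70 subunits of the dimer that caps the ends. *Xrcc5* lay between 2.50 and 3.51 on control arrays (median 3.02) and between -0.23 and 1.92 after x-rays (median 1.55), without overlap, a fall of 1.75 ± 0.33, or 3.35-fold (limma adjusted p = 0.00086). *Xrcc6* fell by 1.07 ± 0.22 after x-rays and by 0.72 ± 0.15 after 0.75 Gy neutron. *Lig4*, the ligase of this route, fell by 1.51 ± 0.33 after x-rays and by 1.36 ± 0.27 after the 15% mixed field, and *Dclre1c*, the nuclease Artemis that opens hairpin ends, by 1.13 ± 0.24 after x-rays and 0.94 ± 0.22 after the 25% mixed field. The *Lig4* probe was well above background on only 2 of 6 x-ray arrays and 3 of 6 arrays of the 15% mixed field. The x-ray calls of *Xrcc6* were lost without control replicate 2 or 6, those of *Dclre1c* without either of these or x-ray replicate 3, and those of *Lig4* without x-ray replicate 3 or 4 or control replicate 2, 5, or 6, with differences of -1.22 to -0.95, -1.26 to -1.01, and -1.66 to -1.24. The call of *Dclre1c* after the 25% mixed field was lost without any 1 of 10 arrays, all but 25% replicate 6 and control replicate 1 (-1.04 to -0.84). *Xrcc4*, the partner of LIG4, did not pass (-0.83 ± 0.26 after x-rays, limma adjusted p = 0.0152, and between -0.26 and 0.06 after the others).

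In alternative end joining, *Parp1*, a sensor of DNA nicks and breaks, lay between 4.40 and 5.05 on control arrays (median 4.73). Its values were 1.10 to 3.37 after x-rays (median 2.78), 2.64 to 4.05 after the 5% mixed field (median 3.47), 3.04 to 4.06 after the 15% mixed field (median 3.51), and 2.60 to 3.94 after the 25% mixed field (median 3.39), all below the controls. It fell by 2.16 ± 0.33, 1.32 ± 0.26, 1.18 ± 0.24, and 1.45 ± 0.25, or 4.47-, 2.49-, 2.26-, and 2.73-fold (limma adjusted p between 0.000188 and 0.00134). After 0.75 Gy neutron it lay between 3.83 and 4.64 (median 4.16), a difference of -0.51 ± 0.17 that did not pass (limma adjusted p = 0.0192). *Polq*, the polymerase of this route, passed after no exposure, with differences between -0.60 and 0.55.

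Among the end resection genes 1 change was found, after 0.75 Gy neutron, which is 20% of 5 beside 36.6% of all genes called. After the other exposures 0 passed, beside 29.8, 23.1, 29.1, and 24.8% of all genes, so that the calls did not exceed the background. Of 5 resection members, *Nbn*, a subunit of the MRE11-RAD50-NBN complex, passed once. It lay between 0.65 and 1.56 on control arrays (median 0.86) and between -0.35 and 0.46 after 0.75 Gy neutron (median -0.08), where no array was well above background, so that it was at least 1.42-fold lower, measured against the lowest signals well above background (limma adjusted p = 0.000505). *Mre11a*, *Rad50*, the helicase gene *Blm*, and the nuclease gene *Exo1* passed after no exposure, with *Mre11a* between -1.05 and -0.55.

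Of 8 recombination members, 2 fell after x-rays and 1 rose after the 5 and the 25% mixed field, which is 25.0, 12.5, and 12.5%, below the 29.8, 23.1, and 24.8% of all genes called. *Rad54l*, which encodes a motor protein of recombination, lay between -1.48 and 0.14 on control arrays (median -1.05), -0.15 and 1.56 after the 5% mixed field (median 0.59), and 0.11 and 1.37 after the 25% mixed field (median 0.47), with overlap, and its probe was well above background on 1 of 6 control arrays and 4 of 6 arrays in each of these fields. It rose by 1.52 ± 0.36 and 1.39 ± 0.31 (limma adjusted p = 0.00355 and 0.00231), both lost without control replicate 1, 4, 5, or 6, the former also without any 5% replicate but the first and the latter without 25% replicate 3 or 6 (1.35 to 1.72 and 1.23 to 1.59 with 1 array left out). Its differences after the other 3 exposures lay between 1.00 and 1.59 without passing. *Rad52*, a mediator of strand annealing, fell by 1.23 ± 0.22 after x-rays, from 2.02 to 2.83 on control arrays (median 2.42) to 0.80 to 1.81 (median 1.24), without overlap. *Xrcc2*, a recombination gene, differed by -1.11 ± 0.24 after x-rays (limma adjusted p = 0.00187), but its probe was well above background on 4 control arrays and no x-ray array, so that no fold is given, and the call was lost without x-ray replicate 2 or 3 or control replicate 2, 3, 4, or 6 (-1.22 to -0.98). *Bard1*, *Brca2*, *Palb2*, *Rad51b*, *Xrcc3*, and the resolvase gene *Eme1* passed after no exposure. One control value of *Rad51b* was missing, so that its tests against controls rest on 5 control arrays.

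The first scan session held 5 x-ray and 5 control arrays. Within it, all 12 members called lower after x-rays were lower (-2.23 to -1.11) and both called higher were higher. The x-ray and control arrays did not overlap for any of the 14 members called. Their direction in any part of the arrays was thus fixed in advance and is no check on the session. On the single slide of the fourth session all 12 were again lower (-2.06 to -0.74, 1 array against 1). There, the 7 members called lower after the 5% mixed field and the 8 after the 15% mixed field were also lower. Of the 2 called higher after the 15% mixed field 1 was higher, *Fancd2* being the exception. Groups did not overlap for 6 of the 9 members called after the 5% and 8 of the 10 after the 15% mixed field. The direction of these was fixed too. How many of all genes called separate in this way was not counted, so the missing overlap adds nothing to the tests. With scan session as a block, *Atm* differed by -1.99 and -1.5 after the 5 and 15% mixed fields, a value that rests on 1 array of each group, and no member passed in those comparisons. Without the fourth session 8 members passed after x-rays, against 14, and with the slide as a block 1, *Atm*. Background correction with normexp, under which 14 members were tested, kept 1 call after x-rays and 1 after the 25% mixed field, both of *Parp1*, and none after the other exposures.

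Several probes of the same gene did not always move together. Of the 10 members with more than 1 probe, 4 had several that could be tested. For *Rad50*, the brightest probe (mm9 chr11:53463096-53463155, minus strand) passed after no exposure, with differences of -1.19, -0.35, -0.13, -0.24, and 0.04. A dimmer probe of the same transcript (mm9 chr11:53506211-53506270) fell after all 5, by 1.71, 1.71, 2.02, 1.56, and 1.73. For *Bard1*, the partner of BRCA1, the brightest probe differed by 0.16 ± 0.20 after 0.75 Gy neutron, while both others rose, by 2.02 ± 0.35 and 1.78 ± 0.19 (limma adjusted p = 0.000314 and 4.59e-06). These 2 were well above background on 6 and 33 of the 36 arrays. For *Dclre1c*, a second probe fell after the 3 mixed fields and 0.75 Gy neutron (-0.88 to -1.40), another after x-rays (-1.40), and the remaining probe passed after no exposure, with differences above 0 (0.28 to 0.73). The second probe of *Atm* differed by -1.41, -1.06, -0.93, -0.88, and -0.43, and passed after x-rays and the 5 and 15% mixed fields. That probe was well above background on 12 of the 36 arrays. No call of another probe counts among those given above.

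**Figure D3:**
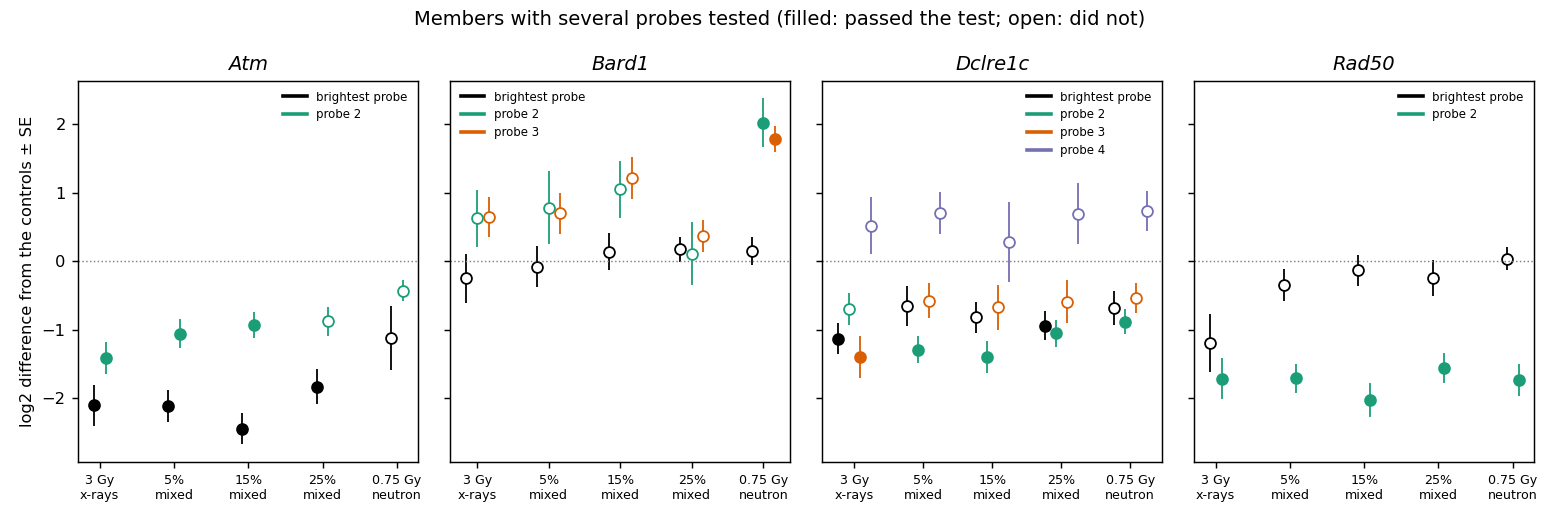
For *Atm*, *Bard1*, *Dclre1c*, and *Rad50*, each panel plots the log2 difference from the controls with its SE for every probe tested, after the 5 exposures (filled where the limma test was passed). The *Rad50* probes separate, with the dimmer one below -1.5 after every exposure, and the *Bard1* probes separate after 0.75 Gy neutron.

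Of the 4 members that varied too little for the main test, the fit without the fold filter called *Mus81*, a resolvase subunit, lower after x-rays (-0.89 ± 0.20) and the 5% mixed field (-0.94 ± 0.21). It called *Nhej1*, which encodes the end joining factor XLF, and *Rnf8*, the first ubiquitin ligase at the break, lower after 0.75 Gy neutron (-0.76 ± 0.16 and -0.84 ± 0.15). *Rnf8* differed more after x-rays, by -1.32 ± 0.33, without passing (limma adjusted p = 0.0045). In this fit 27.6, 21.2, and 33.7% of all genes were called after x-rays, the 5% mixed field, and 0.75 Gy neutron. *Rbbp8*, which encodes the resection factor CtIP, was called after none, with differences between -0.36 and 0.03.

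Against 3 Gy x-rays, the 33 members gave no call for the 5, 15, or 25% mixed field (0, 4.09, and 2.61% of all genes were called, of which 0, 1.61, and 0.749% higher and 0, 2.48, and 1.86% lower), with 4, 7, and 6 members at an unadjusted limma p below 0.05, where 23.3, 28.1, and 29.4% of all genes were. The 6 end joining members lay above their x-ray values in all 3 mixed fields without passing, with a median of 0.52, 0.46, and 0.63, whereas the median of all genes was 0.09, 0.12, and 0.19. The median turned to -0.08 for the 5% mixed field with normexp background correction, and under other scalings 1 or 2 of the genes tested fell below 0 in each field. The widest of these differences was that of *Xrcc5*, 1.19 with a 95% interval of 0.32 to 2.06 for the 5% and 1.23 with 0.33 to 2.14 for the 25% mixed field, and neither passed. Only the 5 and 15% mixed fields shared a scan session with x-rays, on the slide of the fourth, 1 array against 1. There *Xrcc4*, *Prkdc*, and *Dclre1c* lay below x-rays for the 5% mixed field (-0.15, -0.41, and -0.47). For the 15% mixed field *Prkdc* and *Dclre1c* did (-0.11 and -0.31). The other end joining members lay above x-rays on that slide. The part of the session in these differences was not tested.

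0.75 Gy neutron differed from 3 Gy x-rays in 5 members, 15.2% against a background of 12.9% of all genes (6.5% higher and 6.38% lower). *Parp1* was higher by 1.65 (95% interval 0.92 to 2.38), *Atr* by 1.12 (0.56 to 1.69), and *Rad52* by 1.05 (0.60 to 1.5), while *Blm* was lower by 1.32 (0.77 to 1.87) and *Trp53bp1* by 1.02 (0.61 to 1.44). The limma adjusted p were 0.00326, 0.00651, 0.00277, 0.00237, and 0.00197. For each gene the 6 arrays of one group lay beyond all 6 of the other. How many of all genes called separate in this way was not counted, so the separation adds nothing to the test. *Blm*, a helicase that trims ends and dissolves recombination intermediates, lay between 2.42 and 3.65 after x-rays (median 3.28), 1.33 and 2.42 after 0.75 Gy neutron (median 1.92), and 1.91 and 2.79 on control arrays (median 2.26), and passed against controls in neither. With spike-in centring, which moved the median of all genes in this comparison to -0.83, the differences of *Parp1*, *Atr*, and *Rad52* shrank to 0.73, 0.21, and 0.13 and did not pass. All 6 end joining genes lay above 0 in this comparison (median 0.77) and none passed, and with spike-in centring 6 of 7, and with normexp 2 of 4, lay below 0. Markers of B cells were higher than after x-rays in 5 of 8 genes, and markers of dividing and of erythroid cells lower in 3 of 14 and 3 of 8. The doses differ, and the groups share no slide or scan session, so dose, quality of the radiation, and session cannot be told apart here.

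**Figure D4:**
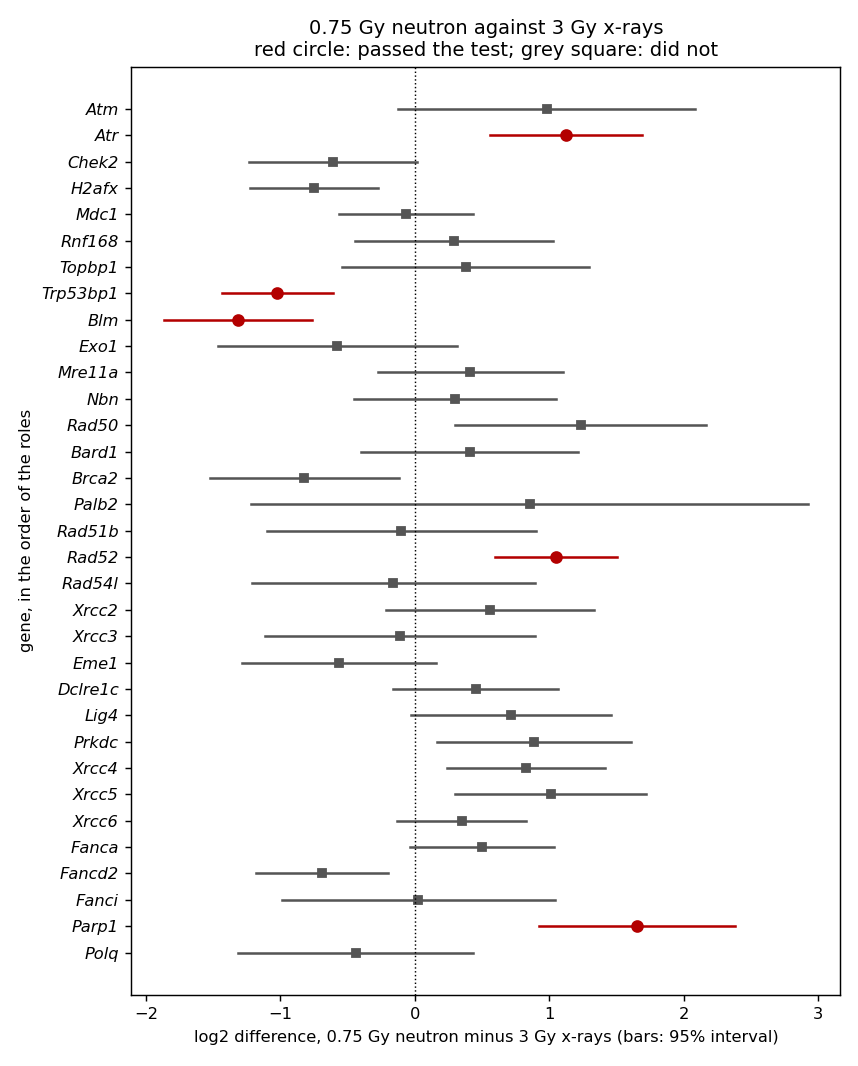
The plot gives the log2 difference of 0.75 Gy neutron minus 3 Gy x-rays for the 33 members, with its 95% interval (6 against 6 arrays). The 5 red circles passed the limma test, with *Parp1* farthest to the right at 1.65 and *Blm* farthest to the left at -1.32, and all 6 end joining genes lie right of 0, which spike-in centring turned for 6 of the 7 genes then tested.

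At the same neutron dose of 0.75 Gy, with or without the x-rays that complete the 25% mixed field, no member differed (11.4% of all genes were called, 4.02% higher and 7.36% lower). At an unadjusted limma p below 0.05 there were 11 members, 3 higher and 8 lower without x-rays, and 39.6% of all genes. *Parp1* was higher by 0.94 (95% interval 0.39 to 1.49), *Trp53bp1* lower by 0.91 (0.38 to 1.45), and *H2afx* lower by 0.75 (0.29 to 1.22). The lowest adjusted p was 0.0167. These 12 arrays share a scan session, and markers of B cells were higher without x-rays in 7 of 8 genes and those of dividing cells lower in 5 of 14.

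The other genes of the same pathways that changed were mostly lower. Of 50 such genes, 49 were on the array and 41 were tested. After x-rays 15 were lower and 0 higher, after the 5% mixed field 14 and 2, after the 15% mixed field 21 and 2, after the 25% mixed field 14 and 2, and after 0.75 Gy neutron 20 and 2, which is 36.6, 39.0, 56.1, 39.0, and 53.7%, against 29.8, 23.1, 29.1, 24.8, and 36.6% of all genes tested. Against x-rays 2 of the 41 (4.88%) differed after 0.75 Gy neutron, where 12.9% of all genes did, and 0 after the mixed fields. *Helq*, a helicase, and *Hus1*, a subunit of the checkpoint clamp, fell after all 5 exposures (-1.79 and -1.59 after x-rays, -2.38 and -2.05 after the 15% mixed field, -1.77 and -2.08 after 0.75 Gy neutron). *Smc5*, of the SMC5-SMC6 complex, rose after the 5% mixed field (1.36) and 0.75 Gy neutron (1.86), and *Shfm1*, whose product binds BRCA2, after the 3 mixed fields (1.13, 1.38, and 1.16).

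Markers of some cell types moved in the same comparisons. Markers of B cells were lower in 8, 8, 8, 8, and 7 of 8 genes after the 5 exposures in the order used above. Their summed level, as a multiple of the array's median probe, was 2048 to 3690 on control arrays, 45.9 to 605 over the x-ray and mixed field arrays, and 881 to 1200 after 0.75 Gy neutron. Markers of T cells were lower in 2, 3, 3, 2, and 0 of 8 genes (854 to 1446 on control arrays, 391 to 1193 over the exposed arrays). Erythroid markers were higher in 6, 6, 7, 5, and 7 of 8 genes (21568 to 28913 on control arrays, 24539 to 111191 over the exposed arrays). Of 18 genes of dividing cells 14 were tested, and 7, 10, 10, 10, and 6 were higher (347 to 514 on control arrays, 568 to 2649 over the exposed arrays). Other lists moved less. Markers of NK cells changed in 0 of 6 genes after every exposure. Those of monocytes were higher in 0, 1, 0, 0, and 2 of 5, of platelets in 0, 0, 1, 2, and 1 of 6. Those of progenitors were higher in 0, 0, 1, 1, and 1 of 5. Neutrophil markers were higher in 2 of 7 after each exposure and lower in 0, 0, 1, 1, and 1. Of the 8 markers of B cells, *Pax5* and *Blk* were significantly above background on 29 and 28 of the 36 arrays and the others on all of them. *Aurkb*, of the dividing cell list, was so on 0. The part of these cell types in the member values was not tested, and in whole blood fewer cells of a type and less RNA per cell cannot be told apart.

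**Figure D5:**
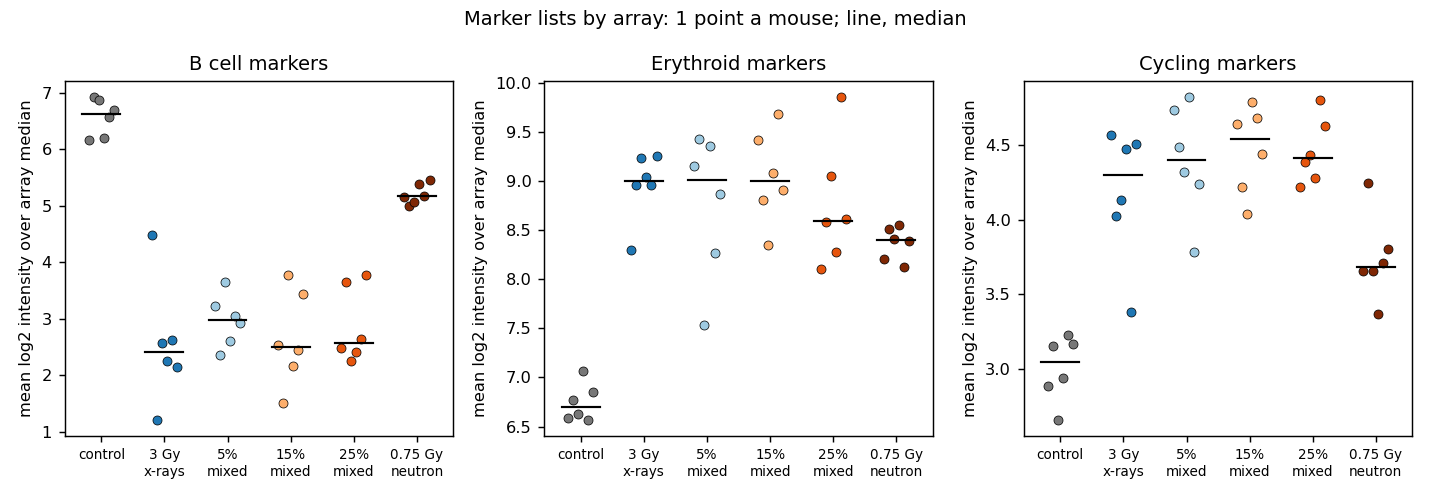
The 3 panels plot the mean log2 intensity over the array median of the marker lists of B cells (8 genes), erythroid cells (8 genes), and dividing cells (18 genes), with 1 point per mouse and the group median as a line. B cell markers lie between 1.22 and 4.49 after x-rays and 5.00 and 5.45 after 0.75 Gy neutron, against 6.18 and above in the controls.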

How the data were processed

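Blood RNA was collected in PAXgene tubes, depleted of globin RNA, and hybridised to Agilent mouse arrays. Deposited intensities are the processed signals of 1 colour that the authors obtained with Feature Extraction 12.0.2 (version per the labels), and the array's own annotation (mm9) gave names and positions. The authors also deposited a log2 table of 14243 probes, which served as an alternative. Non-uniform spots were left out, spots of a probe averaged on the log2 scale, and each array centred on its median non-control probe. Probes had to be significantly above background on over 75% of arrays (21484 of 39429) and differ by 1.5-fold from the probe's median on at least 20% of arrays (17963), and the brightest probe stood for a gene (15085). Groups were compared with limma 3.58.1 in R 4.3.3, using the 12 arrays of each comparison, after a test on simulated data. The number of arrays limits the precision. The members and gene lists were chosen with earlier results of these data known. Values per group are given for members called after all 5 exposures and, for each exposure, for up to 3 called members that rose most and 3 that fell most, and ranges or fold changes for the others. Nothing in the labels ties animals to litters. The p-values rest on the spread between arrays within a group, 1 per mouse, and take no account of slide or scan session. Alternatives covered scaling, background correction, filters, blocks, and single arrays left out.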

Additional observations from a re-analysis of the deposited data

Results flagged for a closer look

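In 18 of 197 gene and group combinations tested, 1 array lay far from the others by Dixon's criterion, which chance meets in about 1 of 20 groups. Values are log2 over the array median, each with the nearest other array of its group. After 0.75 Gy neutron these were *Atm* in the third mouse (3.55, nearest 1.13), *Bard1* in the second (2.80, nearest 1.97), and *Palb2* in the fourth (4.59, nearest 0.92). After the 25% mixed field *Chek2* (1.69, nearest 0.50), *Fancd2* (2.32, nearest 0.93), and *Mre11a* (1.34, nearest 2.13) stood apart in the fifth mouse, *Palb2* (0.55, nearest -1.17) in the fourth, and *Rad54l* (1.37, nearest 0.57) in the third. After the 15% mixed field these were *Chek2* in replicate 4 (2.85, nearest 0.70), *Rad52* in replicate 3 (1.34, nearest 1.94), and *Xrcc5* in replicate 2 (3.91, nearest 2.17). After the 5% mixed field *Blm* (1.71, nearest 2.48), *Lig4* (1.67, nearest 0.36), and *Rnf168* (3.50, nearest 2.45) did so in the third mouse and *Rad50* (1.79, nearest 2.69) in the second. After x-rays it was *Xrcc3* in the fifth mouse (-1.73, nearest -0.02), and among controls *Eme1* in the fifth (0.96, nearest 0.10) and *Nbn* in the sixth (1.56, nearest 0.95).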

How the results depend on the processing

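The counts of members called are given in the order x-rays, 5, 15, and 25% mixed field, and 0.75 Gy neutron against controls (14, 9, 10, 8, and 6 as reported). They are given only where they moved by over 1.5 times. The percent of all genes called under the same setting follows in brackets. Of the members 33 were tested unless another number is given. Normexp gave 1, 0, 0, 1, and 0 of 14 members (3.66, 2.49, 7.42, 4.26, and 3.36%), and 0 for neutron against x-rays (0.00941%). Probes well above background on all arrays gave 7, 4, 5, 3, and 3 of 10 members (40.8, 30.1, 37.7, 33.2, and 47.2%). The adjusted p alone gave 22, 15, 19, 14, and 18 (58.9, 44.5, 49.7, 47, and 59.6%). It gave 10 for neutron against x-rays (28.1%) and 5 for neutron against the 25% mixed field (26.1%). Spike-in centring and leaving out the fourth session were added after seeing the data. The former gave 23 of 37 members after the 5% mixed field (50.7%), 21 after the 15% (43.7%), and 33 after neutron (80.2%). It gave 10 of 37 for neutron against the 25% mixed field (22.3%). Spike-in centring moved the median of all genes by -1.10, -1.44, -1.35, -0.89, and -1.97. After 0.75 Gy neutron 75th percentile scaling gave 2, quantile normalization 3, a single model 2, and the values deposited by the authors 11 (4 after the 25% mixed field, 3 for neutron against x-rays). Neutron against the 25% mixed field gave 2 of 28 with centring on probes well above background (12%). It gave 1 of 28 with 75th percentile scaling (11.5%) or the deposited table (11.1%), and 1 of 27 with quantile normalization (13.5%). Averaged probes (11.2%) and a single model (9.95%) also gave 1. The single model gave 1 for the 15% mixed field against x-rays too (10.2%). The slide block gave 1 for x-rays (8.41%), and leaving out the fourth session 8 for x-rays (21.2%). With the slide or session as a block, the 5 and 15% mixed fields rest on 1 array of each group and are not counted here. With the replicate number as a block, counts were 9 for x-rays (19.3%), 6 for the 15% mixed field (20.5%), and 3 for neutron against x-rays (8.86%). They were 1 each for the 25% mixed field against x-rays (8.71%) and neutron against the 25% mixed field (9.42%). Same-numbered arrays correlated at 0.0375 on average over 90 pairs, and 6 of 36 arrays correlated best with their own number, so the numbers do not pair the mice. The cause of these changes was not tested.

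*Fancd2* turned to -0.047 after 0.75 Gy neutron with spike-in centring and to -0.15 after the 15% mixed field with the slide or session block. *Trp53bp1* turned to -0.13 after x-rays and -0.41 after the 15% mixed field with spike-in centring. Of 628 values of called members under alternatives 490 kept direction and call, 133 kept the direction alone, and these 5 turned. Without each array in turn the counts ran from 9 to 17, 6 to 11, 8 to 12, 5 to 8, and 4 to 7 against controls, 0 for each mixed field against x-rays, 4 to 5 for neutron against x-rays, and 0 to 2 for neutron against the 25% mixed field, and 32 of the 47 calls against controls held throughout. Signal over background limits *Fancd2*, *Rad54l*, *Xrcc2*, *Nbn*, *Lig4*, and *Atm* among the members called.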
